A study of Caenorhabditis elegans with 13 samples.

Results

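Body wall muscle cells of Caenorhabditis elegans hold their contractile filaments against the cell membrane through integrin adhesions, and the genes described here encode the core of those adhesions. The set was chosen by name and comprises 9 of the 17118 genes that had a probe set of their own on the array. The integrin subunits are pat-2, pat-3 and ina-1, and the cytoplasmic partners are pat-4, pat-6, unc-112, unc-97, deb-1 and tln-1. Every probe set that the platform annotation assigns to exactly 1 of these genes was used, which gave 21 of 22548 probe sets, 6 for the subunits and 15 for the partners. pat-6 had 1 probe set, tln-1 had 6 and each of the other 7 genes had 2, and no member probe set named a further gene.

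RNA was profiled on 13 Affymetrix C. elegans arrays after MAPCeL, in which cells of dissociated embryos are sorted by a fluorescent reporter and their RNA is amplified. Muscle cells were sorted for GFP driven by the promoter of the myosin gene myo-3, from a strain (PD4251, ccIs4251) with an integrated copy of that reporter, at 0 hr, straight from the dissociated embryos, as 3 arrays called M0, and following 24 hr of culture as 3 arrays called M24. The references were all viable embryonic cells of wild type N2, sorted by exclusion of propidium iodide, with 3 arrays for 0 hr (R0) and 4 for cultured cells (R24). The paper cites an earlier study for the R24 data. A difference between experiments therefore cannot be told apart from muscle against reference at 24 hr. All 4 groups came from embryonic cells without further treatment, and the labels call the arrays within each group biological replicates. Strain cannot be told apart from cell type in a comparison of muscle with reference, the reporter is also active in the anal depressor and sphincter muscles, and per the labels about 90% of the sorted cells were GFP positive. The reference was not depleted of muscle cells.

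Integrins are heterodimers of an α and a β chain that bind matrix outside the cell and an adaptor complex inside it. In body wall muscle they sit at the bases of the dense bodies, which anchor thin filaments as Z-discs do in vertebrates, and of the M-lines, which anchor thick filaments. PAT-3 is the only β chain of C. elegans and pairs with PAT-2 in muscle or with INA-1, the α chain best known from migrating neurons and from epithelia. Inside the cell UNC-112 (kindlin), PAT-4 (integrin-linked kinase), UNC-97 (PINCH) and PAT-6 (actopaxin, a parvin) join the β chain, while talin and vinculin (DEB-1) link it to actin. Loss of pat-2, pat-3, pat-4, pat-6, unc-112 or deb-1 stops muscle assembly in the embryo.

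The sort was checked with 10 muscle markers, all of which were raised in M0 and 9 of which were raised in M24. myo-3 was higher by 2.80 ± 0.45 on the log2 scale at 0 hr (± SE of the fit, adjusted p = 0.00333 in limma) and by 1.79 ± 0.30 at 24 hr (adjusted p = 0.0133, and 0.0557 without M24 replicate 1). The exception at 24 hr was the tropomyosin gene lev-11 (0.88 ± 0.35, adjusted p = 0.147). Summed intensities of the muscle markers were 17990 to 24180 in M0 against 3632 to 7623 in R0, and 10250 to 18780 in M24 against 2984 to 5018 in R24. By median, markers of epidermis, neurons, pharynx and coelomocytes were lower to different degrees at both times. Those of intestine and germline had median log2 fold changes of 0.01 and 0.09 at 0 hr and of -0.17 and -0.13 at 24 hr. Of all genes, 8.27% were called lowered at 0 hr and 6% at 24 hr. Of 12 epidermis markers 11 were lowered at 0 hr and 8 at 24 hr, of 12 neuron markers 7 and 6, of 8 pharynx markers 5 and 1, and of 3 coelomocyte markers 2 and 0. Of 10 intestine markers 0 were lowered at 0 hr by limma (2 at an unadjusted p under 0.05) and 2 at 24 hr, and of 8 germline markers 1 at each time. The summed intestine markers overlapped at 0 hr, 565.5 to 811.9 in M0 and 641.2 to 953.8 in R0. None of these lists had a gene called raised in muscle at either time. At an unadjusted p under 0.05 in limma, 2 intestine markers and 1 germline marker were higher at 24 hr. Median intensities of the arrays were 49.2 to 58.0, and the mean R² of replicate pairs was 0.937 (R0), 0.923 (M0), 0.957 (R24) and 0.871 (M24), where pairs ranged from 0.797 to 0.959 and the low ones involved M24 replicate 3.

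The first comparison asks how far the adhesion genes were enriched in newly formed muscle, M0 over R0. All 6 cytoplasmic partners were raised, by 1.15 to 2.56 on the log2 scale, as were the integrin chains pat-2 and pat-3, by 1.12 and 1.01, whereas the α chain ina-1 fell by 1.08. The brightest probe set stands for each gene. A call needs a fold change of 1.7 or more together with an adjusted p (Benjamini-Hochberg, across the whole array) under 0.05. These 8 raised genes of 9 compare with 3.95% of all genes on the array called raised, and the 1 lowered gene with 8.27% called lowered. By probe set, 15 of 21 were raised and 2 lowered, beside 3.81% and 7.91% of all probe sets. In each of the 8 raised genes all 3 M0 arrays lay above all 3 R0 arrays, as they did for 17.3% of all genes. The median log2 fold change was 1.66 for the partners, 1.01 for the subunits and 0.10 for all genes. In bulk RNA of this kind, a lower level through fewer cells of a type and through less RNA per cell cannot be told apart.

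The second comparison asks the same of muscle after a day in culture, M24 over R24. Of the partners, unc-97, deb-1 and tln-1 passed the test with rises of 1.45, 0.98 and 3.27, and ina-1 fell by 1.85. No integrin chain was raised. The values for pat-4, unc-112 and pat-6 were 1.20, 0.98 and 0.68 with adjusted p from 0.0568 to 0.108, for pat-2 0.71 and for pat-3 0.01. The 3 raised genes of 9 compare with 2.43% of all genes, and the 1 lowered gene with 6%. By probe set 5 of 21 were raised and 2 lowered, against 2.26% and 5.93% of all probe sets. All M24 arrays lay above all R24 arrays for 5 of the 6 partners and for no subunit, beside 16.8% of all genes. Medians were 1.09 for the partners, 0.01 for the subunits and 0.10 for all genes. Without M24 replicate 3, the array that agreed least with its group, 6 member genes were raised by the brightest probe set, all of them partners. Without M24 replicate 1 only tln-1 was raised and no member was lowered by the brightest probe set, while the second ina-1 probe set stayed lowered. Quantile normalization of all arrays called 7 raised, the 6 partners and pat-2.

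**Figure D1:**
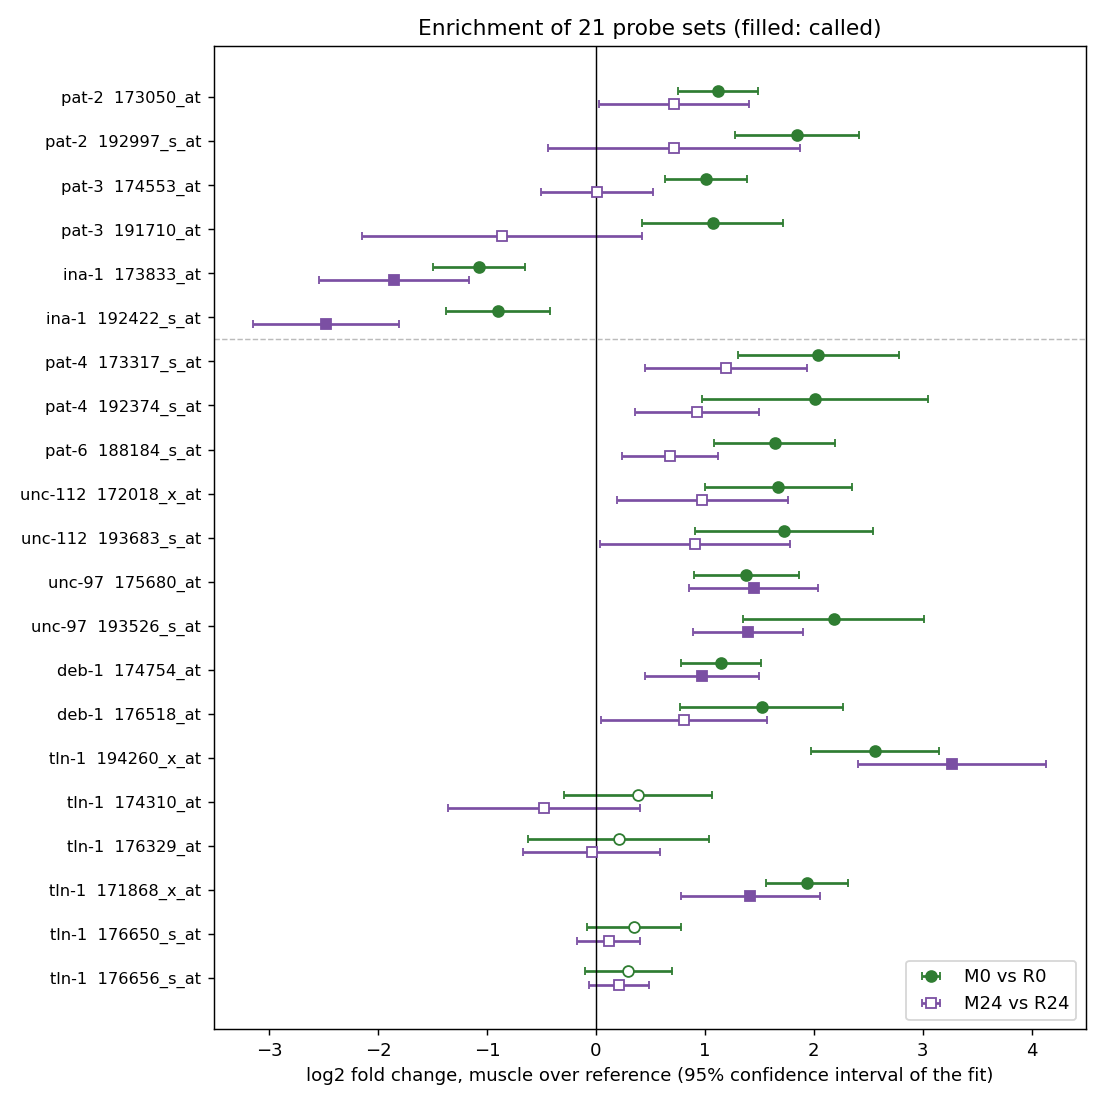
Log2 fold change of muscle over reference (horizontal axis) for the 21 probe sets, with circles for M0 over R0, squares for M24 over R24 and bars for the 95% confidence interval of the fit; filled symbols are called, and the dashed line divides integrin subunits from cytoplasmic partners. At 0 hr 15 probe sets are filled to the right of 0 and the 2 of ina-1 to the left, and at 24 hr 5 are filled to the right and the same 2 to the left.

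Among the integrin subunits, pat-2, the α chain of the muscle integrin, had log2 intensities of 8.37, 8.41 and 8.36 in R0 and of 9.63, 9.42 and 9.45 in M0. The 3 muscle arrays lay about 1 log2 unit above a tightly grouped reference. The difference was 1.12 ± 0.16 (adjusted p = 0.00211), and 1.85 ± 0.25 (adjusted p = 0.00147) in the other pat-2 probe set. At 24 hr the R24 arrays were at 7.54, 7.79, 6.76 and 7.58 and the M24 arrays at 8.20, 8.51 and 7.68, so that M24 replicate 3 lay below R24 replicate 2. The difference of 0.71 ± 0.29 did not pass (adjusted p = 0.156), nor did 0.72 ± 0.49 in the other probe set (adjusted p = 0.353, but 1.33 and 0.032 without M24 replicate 3).

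For pat-3, which encodes the β chain shared by both integrins, R0 was at 9.95, 9.92 and 9.98 and M0 at 10.93, 11.13 and 10.83. The 2 groups were well apart, with a rise of 1.01 ± 0.17 (adjusted p = 0.004). A second probe set gave 1.07 ± 0.29 (adjusted p = 0.0394), a call that was lost when any single array other than M0 replicate 1 was left out (adjusted p from 0.0519 to 0.11), when scan day was a block (0.62, adjusted p = 0.111), with an offset of 32 on the intensity (adjusted p = 0.0887) and in a fit of all 13 arrays (adjusted p = 0.194). In culture the groups overlapped. R24 was at 10.20, 10.46, 9.78 and 10.34 and M24 at 10.31, 10.48 and 9.83, interleaved throughout, and the difference was 0.01 ± 0.22 with a 95% interval of -0.50 to 0.53. The second probe set gave -0.86 ± 0.55 (adjusted p = 0.317), with M24 replicate 3 at 7.08, far below the 8.84 and 9.29 of the other M24 arrays.

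ina-1, which encodes the α chain of the laminin-binding type of integrin, ran the other way. Its R0 values were 9.21, 9.61 and 9.52 and its M0 values 8.46, 8.19 and 8.46, every muscle array below every reference array (adjusted p = 0.00504). In R24 it was at 8.48, 9.22, 8.02 and 8.86, and in M24 at 6.46, 6.88 and 7.02. The difference of -1.85 ± 0.29 (adjusted p = 0.0114) lost its call without M24 replicate 1 (-1.69, adjusted p = 0.0564) and with replicate number as a block (adjusted p = 0.0541). It was also lost with scan day as a random block, whether R24 replicate 4, which has no recorded day, was left out (adjusted p = 0.495) or given its own day (0.085). The other ina-1 probe set was at -0.90 ± 0.21 (adjusted p = 0.0227) at 0 hr, a call lost without R0 replicate 3, M0 replicate 1 or M0 replicate 2 (adjusted p from 0.0532 to 0.109), with quantile normalization (-0.72, adjusted p = 0.0963) and, for its size, with an offset of 32 on the intensity (-0.75). At 24 hr it gave the larger depletion, -2.48 ± 0.28 (adjusted p = 0.00394), with R24 from 7.98 to 8.94 and M24 from 5.46 to 6.17, and kept its call when any single array was left out. Markers of the lineages in which ina-1 is known to act were lower in the same muscle arrays. The summed intensity of 12 epidermis markers was 2662 to 4266 in M0 against 11310 to 12840 in R0 and 2040 to 2802 in M24 against 9688 to 13560 in R24, and that of 12 neuron markers was 3102 to 4005 against 8924 to 9441 and 2823 to 4897 against 5722 to 9840. Their part in the ina-1 result was not tested.

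**Figure D2:**
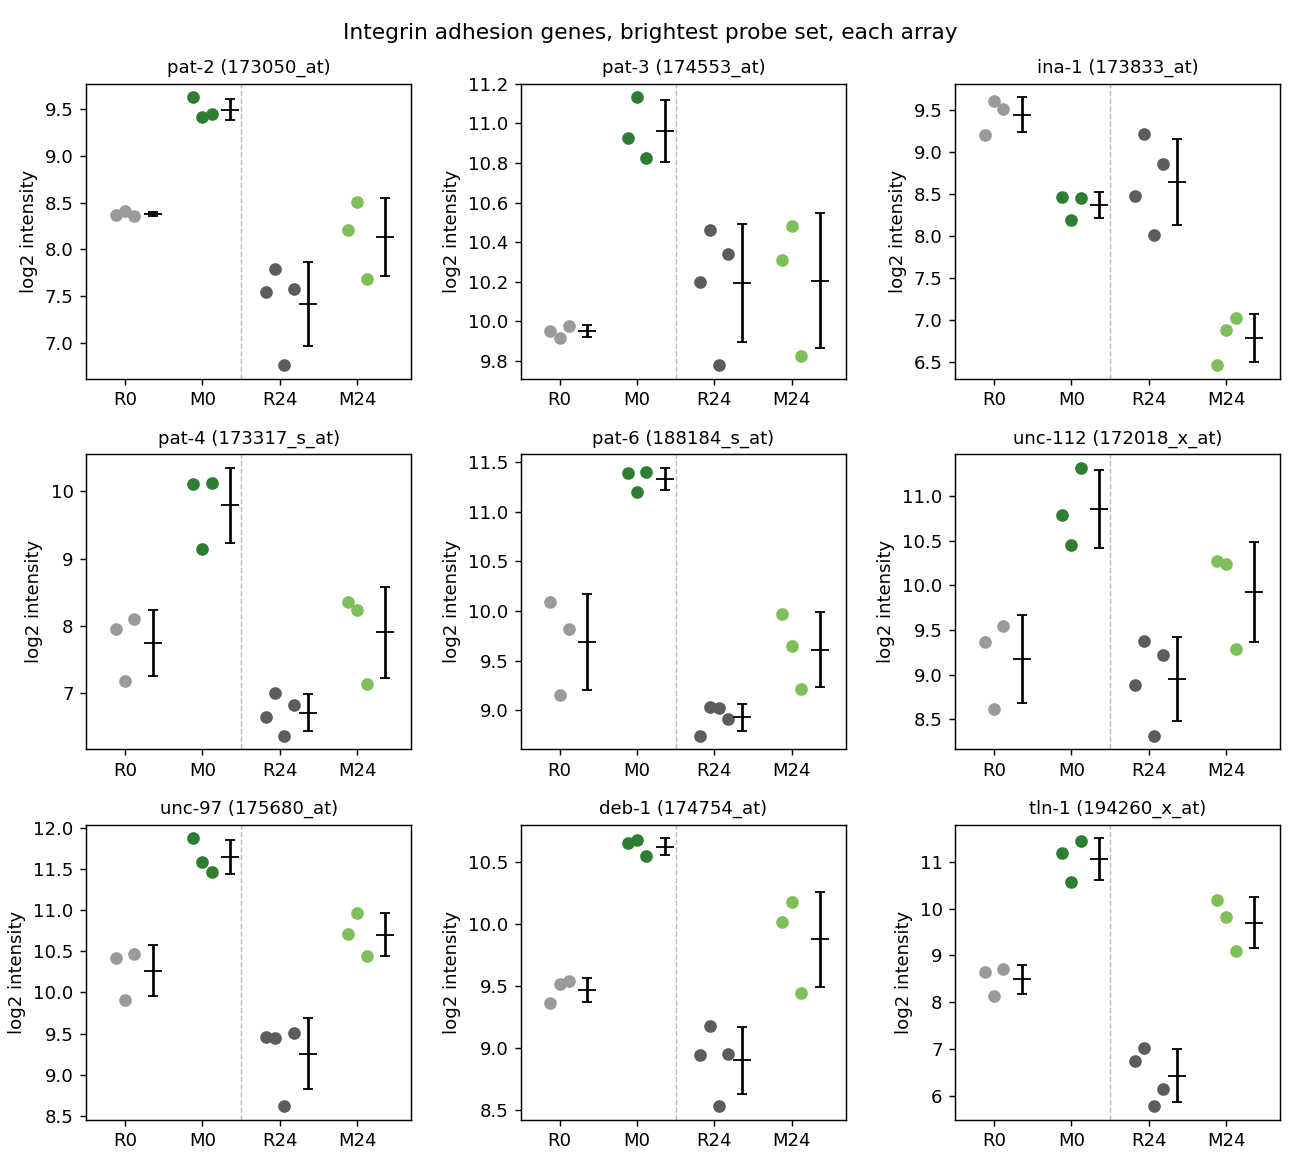
Log2 intensity (vertical axis, a separate scale in each panel) of the brightest probe set of the 9 genes on each array, with points for arrays in replicate order and, beside them, the group mean with bars of 1 SD. Group sizes are n = 3 for R0, M0 and M24 and n = 4 for R24. The dashed line parts the times, whose values were taken as normalized separately. M0 lies apart from R0 in every panel, above it in 8 and below it for ina-1, whereas M24 overlaps R24 for pat-2, pat-3 and unc-112.

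The partners that form the kinase complex were raised together at 0 hr. pat-4, which encodes integrin-linked kinase, had log2 intensities of 7.96, 7.19 and 8.10 in R0 and of 10.10, 9.14 and 10.13 in M0. Replicate 2 was the low array in both groups, and the groups were still more than 1 log2 unit apart. The rise was 2.04 ± 0.33 (adjusted p = 0.00339), or 4.12-fold. Its other probe set gave 2.01 ± 0.46 (adjusted p = 0.0199) and lost its call without M0 replicate 1 or M0 replicate 3 (adjusted p = 0.0569 and 0.0637) and with an offset of 32 added to the intensity (0.0684). With scan day as a block it was 1.21. At 24 hr pat-4 was at 6.65, 7.01, 6.37 and 6.83 in R24 and at 8.36, 8.24 and 7.13 in M24. All M24 arrays were above all R24 arrays, but M24 replicate 3 by a small margin, and the difference of 1.20 ± 0.32 stayed outside the threshold (adjusted p = 0.0568, and 0.0042 without M24 replicate 3, when it was 1.58).

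unc-97, which encodes the LIM domain adaptor PINCH, was raised at both times in both of its probe sets. R0 was at 10.42, 9.91 and 10.46 and M0 at 11.88, 11.59 and 11.47, a rise of 1.38 ± 0.21 (adjusted p = 0.00275). R24 was at 9.46, 9.44, 8.62 and 9.51 and M24 at 10.71, 10.96 and 10.45. Replicate 3 was the lowest array of both groups at 24 hr, and no arrays overlapped. The rise was 1.45 ± 0.25 (adjusted p = 0.0155), nearly the value at 0 hr. The other probe set gave 2.18 ± 0.37 at 0 hr (adjusted p = 0.00431) and 1.39 ± 0.21 at 24 hr (adjusted p = 0.0103). Both calls at 24 hr were lost without M24 replicate 1 (adjusted p = 0.0682 and 0.0535).

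pat-6, the gene of the parvin actopaxin, had a single probe set, with 10.09, 9.15 and 9.82 in R0 and 11.39, 11.20 and 11.40 in M0. The muscle arrays agreed within 0.11 (SD, n = 3) while R0 replicate 2 was low, and the rise was 1.64 ± 0.25 (adjusted p = 0.00244). In culture R24 was at 8.74, 9.03, 9.02 and 8.91 and M24 at 9.97, 9.65 and 9.22. The smallest M24 value was again replicate 3, yet above all of R24, and the difference was 0.68 ± 0.19 (adjusted p = 0.064, and 0.88 with adjusted p = 0.0111 without M24 replicate 3).

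unc-112 encodes kindlin, which activates integrins and recruits integrin-linked kinase. Its R0 values were 9.36, 8.62 and 9.55 and its M0 values 10.78, 10.45 and 11.32, and the rise was 1.67 ± 0.30 (adjusted p = 0.00579). The companion probe set moved by 1.73 ± 0.36 (adjusted p = 0.0128), or by 1.05 with scan day as a block. At 24 hr R24 was at 8.88, 9.38, 8.32 and 9.22 and M24 at 10.27, 10.23 and 9.28, with M24 replicate 3 inside the range of the reference. The differences of 0.98 ± 0.33 and 0.91 ± 0.37 did not pass (adjusted p = 0.108 and 0.153), and were 1.30 and 1.31 without M24 replicate 3 (adjusted p = 0.0317 and 0.0305).

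Vinculin and talin connect the adhesion to actin, and vinculin marks dense bodies but not M-lines in this muscle. For the vinculin gene deb-1, R0 was at 9.36, 9.51 and 9.54 and M0 at 10.65, 10.67 and 10.54. The muscle arrays varied by 0.068 (SD, n = 3), the least of the 9 genes, and the rise was 1.15 ± 0.16 (adjusted p = 0.00178). At 24 hr R24 was at 8.94, 9.18, 8.53 and 8.95 and M24 at 10.01, 10.17 and 9.44. The groups did not overlap and the rise of 0.98 ± 0.22 passed narrowly (adjusted p = 0.0372). That call was lost when any single array other than M24 replicate 3 was left out (adjusted p from 0.0698 to 0.136). Its other probe set was raised at 0 hr, by 1.52 ± 0.33 (adjusted p = 0.0154, but 0.0508 with an offset of 32 on the intensity, and a value of 0.93 with scan day as a block), and was at 0.81 ± 0.32 at 24 hr (adjusted p = 0.148, and 1.24 with adjusted p = 0.00276 without M24 replicate 3).

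The talin gene tln-1 gave the largest fold change of the set, but only in some of its 6 probe sets. In the brightest, 194260_x_at, R0 was at 8.65, 8.14 and 8.70 and M0 at 11.18, 10.57 and 11.43, a rise of 2.56 ± 0.26 or 5.90-fold (adjusted p = 3.73e-04). R24 was at 6.76, 7.04, 5.78 and 6.16 and M24 at 10.18, 9.82 and 9.10, a rise of 3.27 ± 0.37 or 9.62-fold (adjusted p = 0.00386), which kept its call when any single array was left out. A second probe set, 171868_x_at, was raised by 1.94 ± 0.17 at 0 hr (adjusted p = 2.16e-04) and by 1.42 ± 0.27 at 24 hr (adjusted p = 0.0212), the latter lost without R24 replicate 2, 3 or 4 or M24 replicate 1 or 2 (adjusted p from 0.0511 to 0.0709). At 24 hr it lay under the median of all probe sets on all 4 R24 arrays (4.41 to 4.68) and on 1 M24 array, so that difference rests on a dim reference. The suffix of both marks probe sets with probes that can also match other sequences, so their signal may hold other transcripts. The brightest unc-112 probe set is of the same type.

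The remaining 4 tln-1 probe sets were not called at either time. 174310_at was at 8.22, 8.55 and 9.09 in R0 and 9.28, 8.42 and 9.32 in M0, overlapping, with a difference of 0.38 ± 0.30 (adjusted p = 0.459). At 24 hr it stood at -0.48 ± 0.38 (adjusted p = 0.41). 176329_at gave 0.21 ± 0.37 and -0.04 ± 0.27, and its sign at 0 hr turned with scan day as a block (-0.39). The other pair, 176650_s_at and 176656_s_at, gave 0.35 and 0.30 at 0 hr and 0.12 and 0.21 at 24 hr and lay under the median of all probe sets on each of the 13 arrays. Centred within each time, 171868_x_at followed the brightest set with r = 0.94 over the 13 arrays and 174310_at with r = 0.03, as a description only, since much of such a correlation is the separation of muscle from reference. Which of these probe sets represents the muscle talin transcript was not tested.

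**Figure D3:**
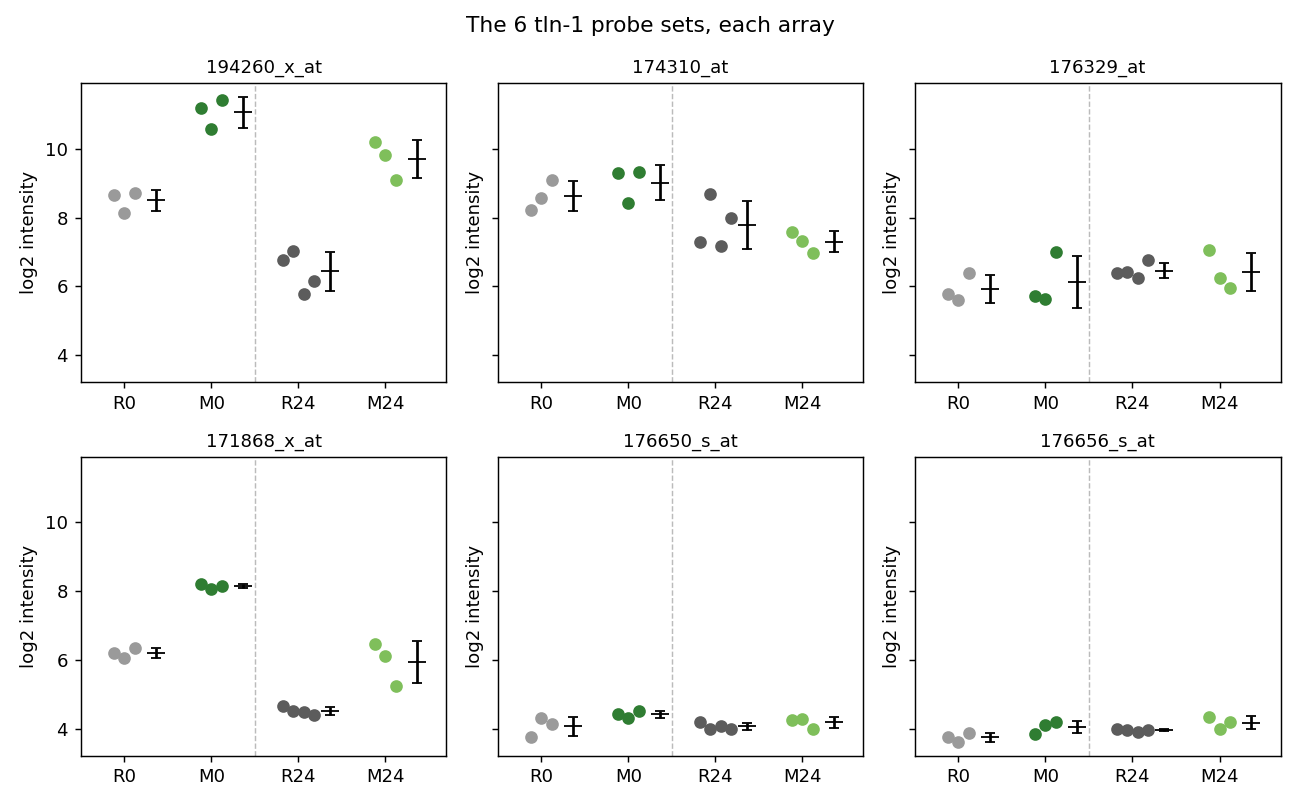
Log2 intensity (vertical axis, the same scale in all panels) of the 6 tln-1 probe sets on each array, points in replicate order, with the mean and bars of 1 SD for each group (n = 3, 3, 4 and 3). Muscle arrays stand clear of reference arrays at both times in 194260_x_at and 171868_x_at, by 1.42 to 3.27 log2 units in the mean, and in the other 4 probe sets the group means differ by at most 0.48.

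Probe sets of the same gene were called alike at 0 hr for all 7 genes with 2 of them, and tln-1, with 2 of 6 raised, was the exception. Subunits and partners were then set side by side as means over genes on each array, less the mean of the reference of the same time. The mean of the 3 subunit genes was 0.32 to 0.42 on the M0 arrays, against -0.08 to 0.05 on the R0 arrays. That of the 6 partner genes was 1.46 to 1.91 on M0 and -0.39 to 0.22 on R0. After culture the subunit mean was -0.57 to -0.13 on M24 and -0.57 to 0.40 on R24, which overlap. The partner mean was 0.91 to 1.72 on M24 and -0.42 to 0.32 on R24, which do not. The subunit mean joins pat-2 and pat-3 with ina-1, which had the opposite sign. The partner mean takes tln-1 from 194260_x_at, which was chosen with the muscle arrays included. A difference between the roles has no test here because the members were chosen with results known.

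**Figure D4:**
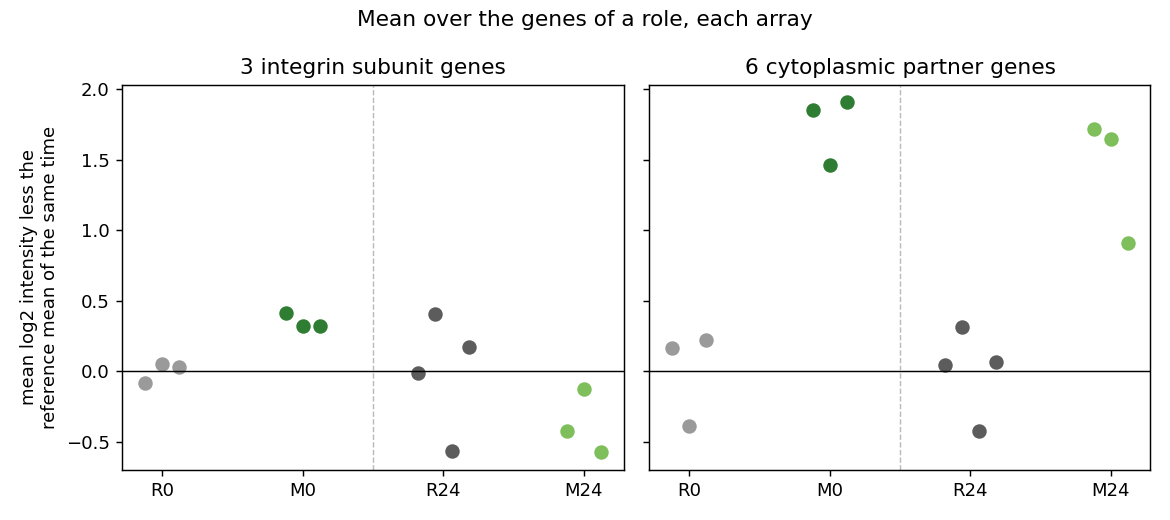
Mean log2 intensity of the brightest probe sets of the 3 integrin subunit genes (left) and the 6 cytoplasmic partner genes (right) on each array, less the mean of the reference arrays of the same time (vertical axis, log2 units); each point is 1 array. The partner means of M0 and M24 lie above all reference arrays of their own time, and the subunit means do so at 0 hr only.

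At 0 hr 2 scan days each held 1 array of muscle and 1 of reference, and the direction of every brightest probe set was the same within both. The partner values were 1.29 to 2.53 within the first such day and 0.90 to 1.86 within the second, and ina-1 was at -0.74 and -1.33. With scan day as a fixed block the 9 brightest probe sets kept their calls, and the partners ranged from 1.16 to 2.20. The estimates of that fit draw on the same 2 pairs of arrays, because R0 replicate 2 and M0 replicate 3 were each alone on their day. At 24 hr no recorded scan day held both groups, so scan day cannot be told apart from muscle against reference there. Of the R24 arrays 3 shared a day, and R24 replicate 4 had no recorded day. With day as a random block and that array left out limma called 0 of the 22548 probe sets (670 higher and 1261 lower at an unadjusted p under 0.05, with 5 and 2 of the 21 member probe sets among them). With the undated array given a day of its own, 1 member gene was raised (tln-1) and the second ina-1 probe set was lowered. Replicates were not alike in level for these probe sets. M24 replicate 3 was the lowest M24 array in 19 of the 21 probe sets, R24 replicate 3 the lowest R24 array in 16, and replicate 2 the lowest in 14 in both R0 and M0. The 10 muscle markers moved with them, with M24 replicate 3 lowest in all 10, R24 replicate 3 in 6, R0 replicate 2 in 9 and M0 replicate 2 in 6. The range of log2 values between the lowest and highest decile of all probe sets was 3.91 on M24 replicate 3 against 4.50 and 4.86 on the other M24 arrays. It was also the narrowest of its group on R24 replicate 3 (4.57), R0 replicate 2 (3.91) and M0 replicate 2 (3.53). The same arrays had the highest median intensity of their groups, at 58.0, 54.7, 52.7 and 55.5 in that order. The part of these differences between arrays in the member values was not tested.

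The third comparison asks whether the enrichment itself differed between the times, as (M24 less R24) less (M0 less R0) over all 13 arrays. Chip lot, where recorded, also differed between the times and cannot be told apart from time here. None of the 21 probe sets was called by limma, beside 0.936% of all probe sets called higher and 0.993% called lower (1.04% and 0.952% of genes), and 4 had an unadjusted p under 0.05. The estimate was below 0 in 19 of the 21, beside 50.9% of all probe sets. Among the 19 are both ina-1 probe sets, where a negative estimate is a deeper depletion, and the 4 tln-1 probe sets called at neither time. Probe sets of the same gene count separately here. Quantile normalization of all arrays turned the deb-1 estimate from -0.18 to 0.14. The medians were -0.78 for the subunits, -0.44 for the partners and near 0 for all genes. For pat-3 the difference was -1.0 ± 0.28 (95% interval -1.60 to -0.40, adjusted p = 0.103) and for its second probe set -1.93 ± 0.68 (adjusted p = 0.211). For pat-6 it was -0.96 ± 0.32 (adjusted p = 0.193). The smallest adjusted p was 0.0517, for the second ina-1 probe set (-1.58 ± 0.37), which fell to 0.043 and 0.048 without R24 replicate 1 or R24 replicate 3. unc-97 and tln-1 were the genes with a positive estimate in the brightest probe set, 0.07 ± 0.34 and 0.70 ± 0.49, and that of unc-97 ranged from -0.15 to 0.25 when single arrays were left out. The intervals were wide for some genes, -1.92 to 0.23 for pat-4 and -0.35 to 1.76 for tln-1, and narrower for others, -0.77 to 0.42 for deb-1. The interval of pat-3 lay below 0 (unadjusted p = 0.00331) but its difference did not pass after adjustment over all probe sets, and that of pat-2 was -1.16 to 0.35.

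Other genes of the attachment pathway were taken from lists by function. Of 20 further attachment and sarcomere linker genes, 11 were raised and 1 lowered at 0 hr (median 1.12), beside 3.95% and 8.27% of all genes. At 24 hr 9 were raised and 1 lowered (median 1.24), beside 2.43% and 6%. unc-95, the gene of a LIM domain protein of dense bodies, was at 7.38, 5.83 and 6.52 in R0 and 9.57, 9.03 and 10.002 in M0, a rise of 2.96 ± 0.38, and rose by 2.69 ± 0.31 at 24 hr. unc-98, whose zinc finger protein binds UNC-97, rose by 2.17 ± 0.25 and 2.24 ± 0.46, the latter with an adjusted p of 0.0525 to 0.111 without any R24 array in turn or without M24 replicate 1. The actinin-associated gene alp-1 rose by 2.21 ± 0.26 at 0 hr and by 1.67 ± 0.38 at 24 hr (adjusted p = 0.0385 in limma). tes-1, which encodes a testin, was the lowered one, at -1.69 ± 0.17 and -2.61 ± 0.28.

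Genes of the matrix to which integrins bind were called in both directions. Of 11 such genes 4 were raised and 2 lowered at 0 hr, beside 3.95% and 8.27% of all genes, and 2 and 3 at 24 hr, beside 2.43% and 6%. Those raised most at 0 hr encode type IV collagen chains, let-2 at 2.48 ± 0.39 and emb-9 at 2.00 ± 0.31. The perlecan gene unc-52, whose product anchors dense bodies from outside, was lower, at 10.13, 10.38 and 10.46 in R0 and 8.05, 7.22 and 8.37 in M0 (-2.45 ± 0.28). At 24 hr unc-52 was lowered too, at -1.27 ± 0.29 (adjusted p = 0.037 in limma). The laminin α gene lam-3 was lowered at both times, at -1.26 ± 0.24 at 0 hr and -2.44 ± 0.35 at 24 hr. The other laminin α gene, epi-1, rose by 1.28 ± 0.29 and the fibulin gene fbl-1 by 1.702 ± 0.42, both at 24 hr and both with a call that was lost without any single array except M24 replicate 3 (adjusted p from 0.0767 to 0.15).

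Of 12 signalling genes downstream of integrins, 2 were raised at 0 hr, beside 3.95% of all genes. They were kin-32 (focal adhesion kinase) at 1.89 ± 0.35 and pak-1 (p21-activated kinase) at 1.30 ± 0.29 (adjusted p = 0.0163, and 0.0544 without M0 replicate 3 and 0.0601 in a fit of all 13 arrays). At 24 hr limma called 0 (2 higher at an unadjusted p under 0.05), and rac-2 and rho-1 had no probe set of their own. Cadherins and other junction proteins anchor epithelial cells to each other. Of 8 genes of this kind 5 were lowered at 0 hr and 3 at 24 hr, beside 8.27% and 6% of all genes, and 0 were raised at either time or higher at an unadjusted p under 0.05 in limma. hmp-1, jac-1 and sax-7 were called at neither time, and hmr-1 and hmp-2 at 0 hr only. dlg-1, the Discs large homolog, was at -1.86 ± 0.21 and -2.22 ± 0.24. let-413 (Scribble) was at -1.71 ± 0.19 and -1.71 ± 0.31 (adjusted p = 0.0632 and 0.0807 at 24 hr without R24 replicate 2 or M24 replicate 1). hmr-1 (E-cadherin) was at -1.64 ± 0.32 at 0 hr, and ajm-1 at -1.43 ± 0.23 at 0 hr and -1.25 ± 0.18 at 24 hr. dlg-1 and ajm-1 are also among the epidermis markers above. For the difference between times limma called 0 of the 51 genes measured in these 4 lists (3 higher and 7 lower at an unadjusted p under 0.05).

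The genes whose pattern was most like that of pat-3 were ranked by Pearson's r of log2 values over the 13 arrays, each centred on the mean of its time, among 17117 other genes. The nearest were hlb-1 (r = 0.945), Y97E10AR.2 (0.918), vig-1 (0.911), uig-1 (0.908) and M79.2 (0.908). These 5 had log2 fold changes of 0.86 to 3.49 at 0 hr and of -0.55 to 0.28 at 24 hr, beside 1.01 and 0.01 for pat-3. They were picked for their likeness to pat-3 on these same arrays, so a similar pattern follows from the choice. pat-2 ranked 37th among all genes (r = 0.852) and unc-112 146th (0.794), whereas tln-1 ranked 1536th (0.571) and ina-1, with r = -0.322, 13783rd. The arrays share the separation of muscle from reference, which contributes to each of these values.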

How the data were processed

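Total RNA of sorted cells (100 ng per sample) was amplified in 2 rounds, biotin-labelled and hybridized to Affymetrix C. elegans arrays. The authors normalized the arrays by robust multiarray analysis (RMA) in GeneTraffic, and the deposited values are probe-set intensity on a linear scale. Arrays of a time shared 55 to 1410 identical values per pair and arrays of different times 0 or 1, so the 2 times were taken as separate RMA runs and no level was compared across them. Deposited scanner settings, which are other text and no measurement, were read for scan day and chip lot, and R24 replicate 4 has none. All 0 hr arrays came from 1 chip lot and all 24 hr arrays with settings from another. Chip lot therefore cannot be told apart from time.

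Intensities were log2-transformed without a pseudocount, and all 22548 probe sets were tested with limma 3.58.1 in R 4.3.3 (lmFit and eBayes, two-sided). limma stands in for the significance analysis of microarrays named in the methods. Adjusted p-values are Benjamini-Hochberg over all probe sets and plots were made in Python 3.11.15 with matplotlib 3.10.9. The code was tested on simulated data. Depth has no meaning for arrays, and the number of arrays limits the precision.

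Genes were named by the platform annotation, where 20766 probe sets name 1 gene, 887 several and 895 none, and all 9 members were found in the RefSeq gene table. No sequence or coordinate was used here. A gene is represented by its probe set with the highest mean over all arrays, muscle and reference together. The members, lists and tests were chosen with earlier results of these data known. Named genes are the members, the muscle markers, up to 3 called genes with the largest change per list and comparison, and the 5 genes most like pat-3.

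Deviations from the group means were correlated between same-numbered arrays of muscle and reference. The values were 0.216, 0.324 and 0.153 at 0 hr and 0.21, -0.0437 and 0.385 at 24 hr. Differently numbered arrays were not correlated for comparison, so these values cannot show a pairing, and the labels state none. Alternatives were quantile normalization of all arrays, an offset of 32, leaving out the dimmest 25% of probe sets, scan day and replicate number as blocks, 1 fit of all arrays or array weights, the next brightest probe set, and leaving out each array.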

Additional observations from a re-analysis of the deposited data

Results flagged for a closer look

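A single low array stood out within R24, the only group large enough to be examined for it, in 2 of the 38 probe sets of member and named genes. For unc-97 (175680_at) R24 replicate 3 was at 8.62 and the other R24 arrays at 9.44 to 9.51, a gap of 0.921 of the whole range. For hmr-1 (175623_s_at) the same array was at 8.88 and the others at 10.004 to 10.17, a gap of 0.875 of the range. Chance marks about 1 in 20 groups in this way. Without R24 replicate 3 unc-97 was still called raised at 24 hr.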

How the results depend on the processing

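At 0 hr the calls of the brightest probe sets of all 9 genes held under every alternative that kept those probe sets. With the next brightest probe sets tln-1 was not called raised (174310_at, 0.38, adjusted p = 0.459 in limma). The median log2 fold change of the subunits was 0.93 with quantile normalization and 1.07 with the next brightest probe sets, and 0.93 to 1.08 with single arrays left out. That of the partners was 1.31 with scan day as a block and 1.38 to 1.81 with single arrays left out, the lowest without R0 replicate 2. An offset of 32 lowered the count of all probe sets called lower from 1784 to 1129. tln-1 176329_at turned to -0.39 with scan day as a block and ranged from -0.23 to 0.45 with single arrays left out.

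At 24 hr the counts depended on the setting. Members are counted by the brightest probe set unless stated. The second ina-1 probe set lost its call only in the random block without the undated array. Quantile normalization raised 7 member genes and 768 probe sets, and an offset of 32 raised 296 probe sets. The next brightest probe sets gave 1 raised member and a subunit median of -0.86. A random block for scan day with the undated array left out called 0 probe sets higher, 0 lower and 0 members. Added after seeing the data, a day of its own for that array gave 188 and 430 probe sets, 1 member raised and 0 lowered, and pat-3 at -0.0205. With the replicate number as a block 251 probe sets were raised and 755 lowered, with 4 members raised, among them unc-112, and 0 lowered. At 0 hr that block gave 957 and 1924, and it changed no call of a member there. With single arrays left out the raised probe sets numbered 194 to 1230 and the lowered 584 to 1479, the raised members 1 to 6 and the lowered 0 to 1, with the extremes without M24 replicate 1 and M24 replicate 3 for the raised. pat-3 then ranged from -0.13 to 0.20 and tln-1 176329_at from -0.35 to 0.19, the latter also at 0.049 with quantile normalization and at 0.0697 in the replicate block and in the random block without the undated array.

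For the difference between times the probe sets called higher and lower numbered 37 and 35 with the random scan day block and the undated array left out, 78 and 94 with the replicate block, 369 and 390 with array weights, and 92 to 420 and 114 to 302 with single arrays left out. The subunit median was -1.58 with the next brightest probe sets. deb-1 turned to 0.14 with quantile normalization and ranged from -0.32 to 0.0394 with single arrays left out, unc-97 from -0.15 to 0.25, tln-1 176329_at from -0.56 to 0.19 (0.10 in that random block) and tln-1 176656_s_at from -0.18 to 0.00908. The second ina-1 probe set was called lower under 4 of 20 alternatives. The cause of these changes was not tested.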
